A study of Mus musculus with 27 samples.

Results

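The genes described here are 10 genes of protein folding in the endoplasmic reticulum (ER) and of the response to unfolded protein: the chaperones *Hspa5*, *Hsp90b1*, *Calr* and *Canx*, the protein disulfide isomerases *Pdia3*, *Pdia4* and *Pdia6*, the stress regulators *Xbp1* and *Ddit3*, and the co-chaperone *Dnajb9*. They were chosen by name from the 37310 genes of an RNA-seq table, and all 10 were among the 15387 genes with enough counts to be tested. The table holds 12 libraries of mouse embryonic fibroblasts (MEFs), primary cells grown from the trunk of mid-gestation embryos and used up to the fourth passage. In the knockout (KO) groups the X-linked *Firre* long noncoding RNA locus, with its promoter, had been removed by recombination between loxP sites. The wild-type (WT) groups carried the intact locus, and the groups were female WT, female KO, male WT and male KO, with 3 libraries each. MEFs had no drug treatment named in the labels, and no agent that causes ER stress was part of the design. Lines were made from individual embryos, but the labels do not say which library came from which embryo, so a p-value measures the spread between these libraries only.

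The ER folds proteins that enter the secretory pathway. *Hspa5* encodes BiP, which binds unfolded chains and also holds the stress sensors of the ER membrane in an inactive state. When unfolded protein accumulates, the sensors act through the transcription factors XBP1, ATF6 and ATF4, which raise chaperone genes and, under lasting stress, *Ddit3* (CHOP), a regulator linked to cell death. Fibroblasts secrete collagen and other matrix proteins and therefore carry a large folding load.

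A known route of control is the ER stress response element, the letters CCAAT and CCACG with 9 bases between them, bound by NF-Y and ATF6. In RefSeq promoter windows of GRCm38.p6, which run from 250 bases before to 50 bases after each start, both strands were searched for it. It was present in 39 of 32851 windows (0.119%), and in 37 of 27025 genes (0.137%). All 10 genes had a window, and 5 of them held the element: *Hspa5*, *Hsp90b1*, *Calr*, *Canx* and *Pdia6*. The 6 matches are shown because they mark the genes that share this sequence. Each is read 5′ to 3′ along the strand of the element with 20 bases on either side, and the capitals mark the 2 fixed parts of the element.
Hspa5: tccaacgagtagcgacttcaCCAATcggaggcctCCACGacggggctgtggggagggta
Hsp90b1, distal: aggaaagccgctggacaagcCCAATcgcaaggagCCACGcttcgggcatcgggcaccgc
Hsp90b1, proximal: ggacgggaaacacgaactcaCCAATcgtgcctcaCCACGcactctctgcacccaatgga
Calr: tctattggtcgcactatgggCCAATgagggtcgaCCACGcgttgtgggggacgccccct
Canx: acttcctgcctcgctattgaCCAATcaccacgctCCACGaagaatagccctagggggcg
Pdia6: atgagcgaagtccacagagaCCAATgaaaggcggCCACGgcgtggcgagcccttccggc

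The stretch of *Hspa5* lies at chr2:34772005-34772063 on the plus strand, and its element begins 65 bases before the start. *Hsp90b1* is the one gene with 2 matches, at chr10:86705618-86705676 on the minus strand and chr10:86705513-86705571 on the plus strand, which begin 212 and 107 bases before the start. The match of *Calr* lies at chr8:84847055-84847113 on the plus strand, against the direction of the gene. Those of *Canx* (chr11:50325780-50325838, minus strand) and *Pdia6* (chr12:17266471-17266529, plus strand) run with the gene. All 6 stretches lie in the promoter, upstream of the first exon in RefSeq. The spacers differ in all 6, so the shared letters are the fixed parts alone. Windows were also searched for the UPR element TGACGTGG (0.676% of windows), ERSE-II, written ATTGGNCCACG (0.0365%), and the ATF4 site TTGCATCA (0.895%). ERSE-II shares the letters CCACG with the ER stress response element. None of these letters occurred in the windows of the 10 genes, and *Pdia3*, *Pdia4*, *Xbp1*, *Ddit3* and *Dnajb9* held no match to any of the 4 elements. Only exact matches were counted, so an element with a mismatch or outside the window would have been missed. A match is a description of the sequence and not a measured binding site.

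Female libraries held 42986516 to 51481034 expected counts and male libraries 51521907 to 65454660, so every male library was deeper than every female library. *Firre* had 90 to 129 expected counts in female WT, 239 to 307 in male WT and 0 in all 6 KO libraries, as the labels state. The 12 fibroblast markers summed to between 16520 and 24576 CPM (counts scaled to library size by the TMM method), carried mainly by *Fn1*, *Vim*, *Col1a1* and *Col1a2*. Others on that list were low, with group means of 7.53 to 18.7 CPM for *Dcn* and 10.5 to 29.9 CPM for *Pdgfra*. The third replicate of male WT and of male KO stood apart from the other 2 of its group. Its counts differed from theirs by a chi-square of 36.4 to 43.5 per degree of freedom, against 7.34 to 16.0 in the other 8 pairs of replicates. Sex, the embryos the lines came from and depth cannot be told apart in the comparisons of female with male libraries.

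Per length, in approximate TPM (transcript level scaled by gene length and library size) over the 12 libraries, *Calr* had the highest mean level, 1136 ± 77.8 (SD, n = 12). *Hsp90b1* followed at 1064 ± 152, *Pdia3* at 1000 ± 105 and *Hspa5* at 948 ± 108, and these neighbours differed by less than their SD. The order of the first 2 differed by sex: *Calr* stood at 1093 ± 21.7 and *Hsp90b1* at 962 ± 5.63 TPM in female WT, but at 1181 ± 93.7 and 1198 ± 13.1 TPM in male WT (SD, n = 3). *Canx* was lower at 578 ± 48.2, followed by *Pdia6* (368 ± 39.4) and *Pdia4* (332 ± 43.9). The ranges of *Pdia6* and *Pdia4* over the 12 libraries overlapped, but *Pdia6* stood above *Pdia4* within every library. The regulators formed a lower tier: *Xbp1* stood at 75.8 ± 15.7 TPM, while *Ddit3* (41.8 ± 4.73) and *Dnajb9* (38.6 ± 2.87) did not differ beyond their spread. By TPM, *Calr*, *Hsp90b1*, *Pdia3* and *Hspa5* ranked 124, 134, 145 and 151 among the 15387 genes tested, and *Dnajb9* ranked 3820. Together the 10 genes took 0.593% to 0.644% of the counts in female libraries and 0.696% to 0.745% in male libraries.

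**Figure D1:**
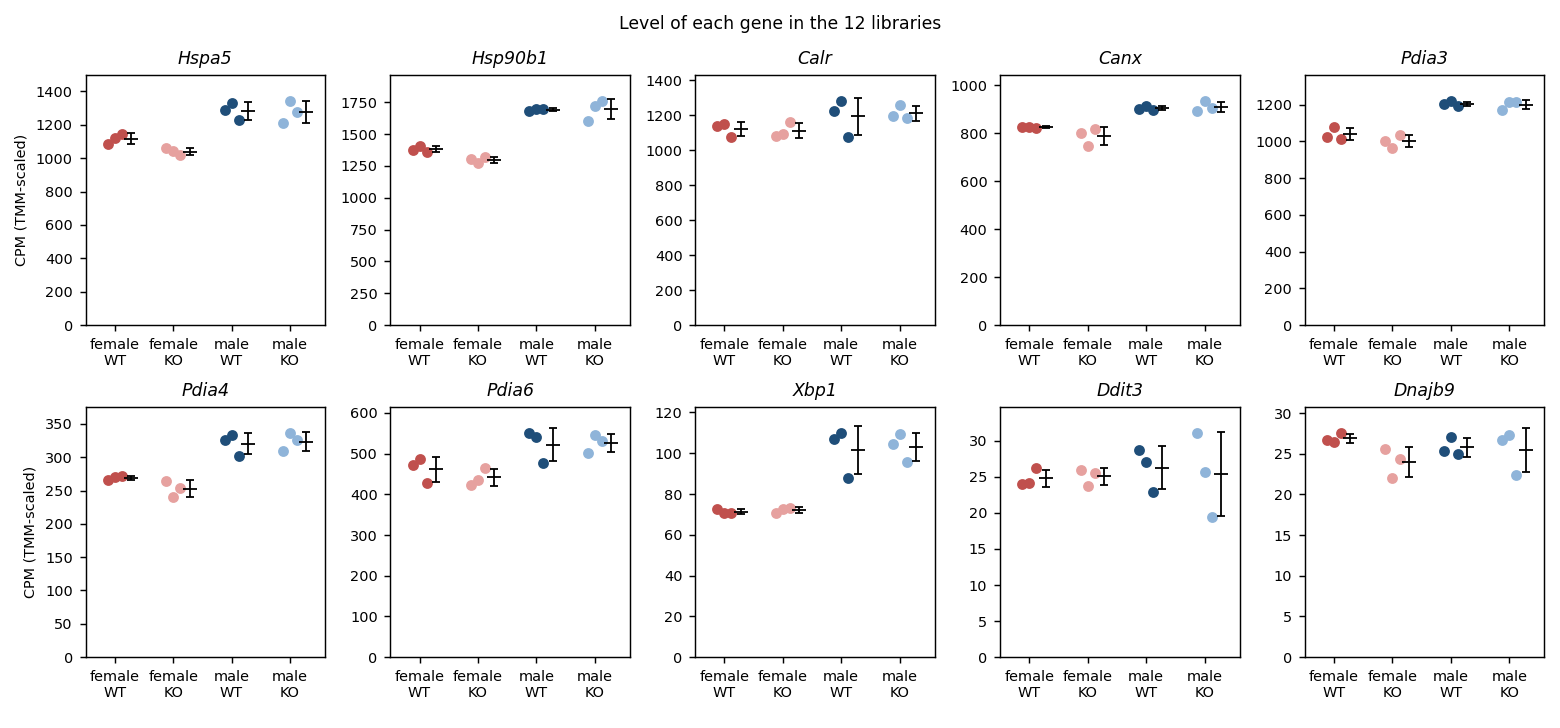
CPM (TMM-scaled, linear axis from 0) of each of the 10 genes in the 12 libraries, by group. Points are libraries, and the bar beside them is the mean with the SD of 3 libraries. Female libraries of *Xbp1* lie between 70.6 and 73.1 CPM and male libraries between 88.0 and 110 CPM.

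Among the chaperones, *Hspa5* stood at 1082, 1119 and 1148 CPM in female WT, 1060, 1041 and 1018 in female KO, 1291, 1331 and 1226 in male WT, and 1210, 1340 and 1275 in male KO. The 3 female KO values lay below the 3 female WT values, and all 6 female values lay below all 6 male values. *Hsp90b1* (GRP94, the ER member of the HSP90 family) read 1378, 1406 and 1361 CPM in female WT, 1305, 1273 and 1319 in female KO, 1683, 1700 and 1697 in male WT, and 1606, 1720 and 1757 in male KO. Again the female KO values lay below the female WT values and all female values below all male values, while the male WT and KO values overlapped. Its counts were fractional in all 12 libraries, as were those of *Dnajb9* in 5 and *Calr* in 1, which means that RSEM divided part of their reads with other genes.

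*Calr* and *Canx* encode calreticulin and calnexin, the lectin chaperones that hold newly made glycoproteins. *Calr* read 1138, 1149 and 1075 CPM in female WT, 1081, 1091 and 1162 in female KO, 1222, 1278 and 1077 in male WT, and 1192, 1260 and 1182 in male KO. Its female and male WT values overlapped through male WT replicate 3, the lowest male library. *Canx* read 826, 827 and 820 CPM in female WT, 799, 745 and 817 in female KO, 901, 914 and 898 in male WT, and 892, 932 and 906 in male KO. Here no female value reached a male value.

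The disulfide isomerases form and rearrange disulfide bonds, and *Pdia3* works with calnexin and calreticulin on glycoproteins. *Pdia3* read 1024, 1076 and 1015 CPM in female WT, 1004, 966 and 1034 in female KO, 1202, 1218 and 1193 in male WT, and 1171, 1217 and 1212 in male KO. *Pdia4* read 266, 270 and 272 CPM in female WT, 265, 240 and 255 in female KO, 325, 333 and 303 in male WT, and 309, 336 and 326 in male KO. For both genes all 6 female libraries lay below all 6 male libraries. *Pdia6*, which also modulates the IRE1 sensor, read 471, 486 and 427 CPM in female WT, 423, 436 and 465 in female KO, 550, 542 and 476 in male WT, and 501, 545 and 532 in male KO. Male WT replicate 3 was again the lowest male library and lay within the female WT range.

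*Xbp1*, the transcription factor whose mRNA is spliced by IRE1, read 72.8, 70.6 and 70.8 CPM in female WT, 70.6, 72.6 and 73.1 in female KO, 107, 110 and 88.0 in male WT, and 104, 109 and 95.6 in male KO. The 6 female values were nearly level, and the male values were higher and more spread. Counts per gene cannot show the share of spliced *Xbp1* mRNA. *Ddit3* read 24.0, 24.1 and 26.2 CPM in female WT, 25.9, 23.7 and 25.6 in female KO, 28.8, 27.1 and 22.9 in male WT, and 31.0, 25.7 and 19.5 in male KO. *Dnajb9* (ERdj4), which assists BiP and dampens IRE1, read 26.7, 26.4 and 27.5 CPM in female WT, 25.6, 22.0 and 24.4 in female KO, 25.3, 27.1 and 24.9 in male WT, and 26.7, 27.3 and 22.4 in male KO. Male and female values overlapped for *Ddit3* and *Dnajb9*. From the lowest to the highest library, levels of the 10 genes varied by 1.19 times for *Calr* to 1.59 times for *Ddit3*.

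The first comparison asked whether loss of *Firre* went with a change in these genes. With p-values adjusted by Benjamini-Hochberg over all tested genes, edgeR's quasi-likelihood test placed 0 of the 10 genes under an adjusted p of 0.05 in female MEFs (background 0.013% of genes) and 0 in male MEFs (background 0.0065%). The effect averaged over the sexes gave 0 genes (background 0.0195%), and so did the difference of the effect between the sexes (background 0%). DESeq2 gave 0 genes in all 4 comparisons. At an unadjusted p of 0.05, 2 of the 10 genes passed in female MEFs, where 1162 of all 15387 genes did. In the other 3 comparisons 0 of the 10 passed, against 317 genes in male MEFs, 960 for the average and 491 for the difference between the sexes.

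In female MEFs 8 of the 10 genes were lower in KO by point estimate, with a median log2 fold change of −0.07 against 0.00 over all genes tested. *Hsp90b1* differed by −0.09 ± 0.04 (log2, SE; unadjusted p = 0.0374, adjusted p = 0.630) and *Hspa5* by −0.10 ± 0.05 (unadjusted p = 0.0471, adjusted p = 0.656), the 2 genes counted above. *Dnajb9* had the largest difference, −0.16 ± 0.08, which is 10.7% lower (adjusted p = 0.678). For 5 genes (*Hspa5*, *Hsp90b1*, *Canx*, *Pdia4* and *Dnajb9*) every KO library lay below every WT library, as it did for 8.26% of all genes. These genes were measured in the same 6 libraries and are not independent of each other. *Xbp1* and *Ddit3* differed by 0.01 and 0.02.

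In male MEFs the log2 fold changes lay between −0.05 (*Ddit3*) and 0.02 (*Calr*), and 4 of the 10 were below 0. No gene had all male KO libraries below all male WT libraries (background 2.52%). The 95% intervals of *Hspa5* ran from −0.20 to −0.0016 in female and from −0.11 to 0.09 in male MEFs. The widest intervals were those of *Ddit3*, −0.29 to 0.32 and −0.35 to 0.25. The difference between the sexes in the KO effect was −0.09 ± 0.06 for *Hspa5*, with an interval of −0.24 to 0.05, so the female and male values were not shown to differ.

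**Figure D2:**
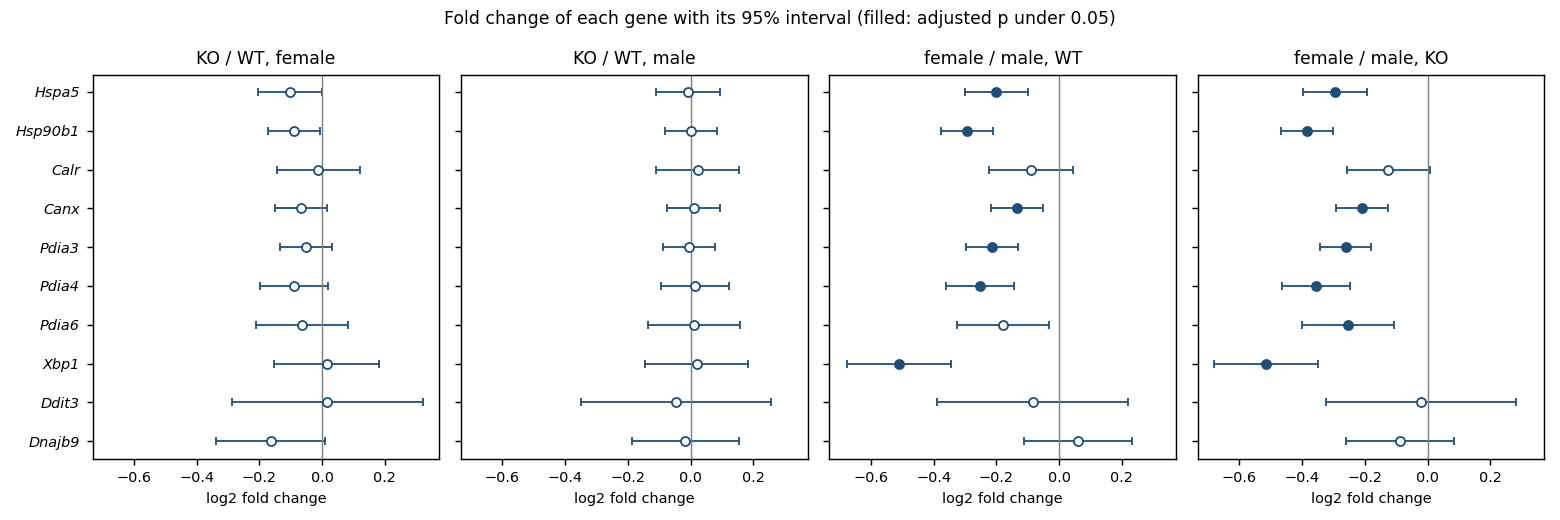
Log2 fold change (horizontal axis) of each gene in 4 comparisons, with 95% intervals from the fit over 12 libraries. Filled points passed an adjusted p of 0.05. In both KO comparisons all points are open, while 6 genes are filled for female against male WT and 7 for female against male KO.

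The second comparison set female against male MEFs. In WT libraries 6 of the 10 genes were lower in female MEFs (background 19.8% lower and 18.9% higher) and 0 were higher. *Xbp1* had the largest difference, −0.51 ± 0.08 (log2, SE), or 29.8% lower (adjusted p = 5.0e-04). *Hsp90b1* was 18.4% lower, at −0.29 ± 0.04 (adjusted p = 2.1e-04). *Pdia4* was 16.0% lower (adjusted p = 0.00258), *Pdia3* 13.8% lower (adjusted p = 0.00129), *Hspa5* lower by −0.20 ± 0.05 (adjusted p = 0.00585) and *Canx* 8.85% lower (adjusted p = 0.0168). *Pdia6* did not pass, at −0.18 ± 0.07 (adjusted p = 0.0528), nor did *Calr*, at −0.09 ± 0.06 (adjusted p = 0.268). *Ddit3* (−0.08, interval −0.39 to 0.22) and *Dnajb9* (0.06, interval −0.11 to 0.23) did not pass either.

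In KO libraries, which are other libraries but share the estimate of spread, 7 of the 10 genes were lower in female MEFs (background 19.7% lower and 18.9% higher). *Xbp1* was 30.1% lower, at −0.52 ± 0.08 (adjusted p = 4.6e-04), and *Hsp90b1* 23.3% lower, at −0.38 ± 0.04 (adjusted p = 4.6e-05). *Pdia4* was 21.8% lower, *Hspa5* 18.5% lower, *Pdia3* 16.5% lower, *Pdia6* 16.1% lower and *Canx* 13.5% lower, with adjusted p-values of 3.6e-04 to 0.0119. *Calr* did not pass, at −0.12 ± 0.06 (adjusted p = 0.126).

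The 6 genes that were lower in WT were also lower in KO (background 15.5%), and they were the 6 genes with every female library below every male library (background 16.9%). The median log2 fold change of the 10 genes was −0.19 in WT and −0.26 in KO, against −0.01 and −0.00 over all genes tested. At an adjusted p under 0.01 with an absolute log2 fold change over 1, the thresholds of the study, 0 of the 10 genes were called in WT (background 4.54%) or in KO (background 3.89%).

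The third male replicates touched these counts. With male replicate 3 of both genotypes left out, 8 genes were lower in WT (background 23.1%) and 9 in KO (background 22.8%). *Calr* then passed in both (−0.16, adjusted p = 0.0185, and −0.14, adjusted p = 0.0288). *Pdia6* passed in WT (−0.24, adjusted p = 0.0104) and *Dnajb9* in KO (−0.17, adjusted p = 0.0457). Without female WT replicate 3, *Canx* no longer passed in WT (−0.13, adjusted p = 0.0507).

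Markers of other cells differed between the sexes as well, and their counts are to be read against 19.8% of all genes lower and 18.9% higher in female WT, and 19.7% and 18.9% in female KO. All 10 macrophage markers were higher in female MEFs in both genotypes. Their summed level was 56.6 to 104 CPM in female WT and 43.5 to 139 in female KO, against 9.64 to 15.2 in male WT and 7.94 to 16.9 in male KO, with no marker at 0 in any group. Of 7 epithelial markers, 7 were higher in female WT and 2 in female KO, with summed levels of 23.4 to 71.1 CPM in female and 6.41 to 16.5 in male libraries. Of 8 muscle markers tested, 4 and 5 were higher in female WT and KO, and of 5 endothelial markers, 3 and 1. Muscle sums overlapped between the sexes, at 86.1 to 145 CPM in female and 79.7 to 146 in male libraries. Endothelial sums were 25.0 to 35.5 CPM in female and 17.1 to 23.3 in male libraries. Of 12 fibroblast markers, 5 (41.7%) were lower in female WT and 5 in female KO, where 1 was higher. The part of cell makeup in the difference of the 10 genes was not tested, and in bulk RNA fewer cells of a type and less RNA per cell cannot be told apart.

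Other genes of the pathway, and heat shock genes outside the ER, were mixed in direction. With the KO, 0 of the 107 genes on the lists below, heat shock genes included, passed the same edgeR test in either sex, and 5 in female and 0 in male MEFs had an unadjusted p under 0.05, a share of 4.67% in female MEFs against 7.55% of all genes tested. Between the sexes, the share of all genes called was 19.8% lower and 18.9% higher in female WT, and 19.7% and 18.9% in female KO, with medians of −0.01 and −0.00. Of 18 other ER chaperones and co-chaperones, 2 (11.1%) were lower and 1 higher in female WT, shares below those of all genes, and 5 (27.8%) were lower in female KO, with medians of −0.09 and −0.06. *Dnajc1*, a membrane J-protein that recruits BiP, was lower by −0.38 in WT and −0.42 in KO. *Dnajc10*, an ER reductase with a J domain, was lower by −0.30 and −0.28. The secreted chaperone-like *Creld2* was higher in WT (0.16, adjusted p = 0.0271) and stood at 0.08 in KO (adjusted p = 0.241). *Hspa13* was lower in KO (−0.30) and stood at −0.10 in WT (adjusted p = 0.105). Of 11 other disulfide isomerases and oxidases, 1 (9.09%) was lower in WT (*Tmx3*, −0.24), and the medians were −0.04 and −0.05. In KO, 3 of them (27.3%) were lower (*Tmx3*, −0.28, and *Erp44*, −0.23, among them) and 1 was higher (*Pdia5*, 0.27). In WT, *Erp44* stood at −0.09 (adjusted p = 0.0528) and *Pdia5* at 0.17 (adjusted p = 0.0583).

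Of 10 stress sensors and transcription factors, 5 were lower and 2 higher in female WT, and 4 were lower and 2 higher in female KO, with medians of −0.23 and −0.13. The 2 higher were near the share over all genes, and the lower counts were above it. *Eif2ak3* encodes PERK, the sensor kinase that acts through ATF4, and was lower by −0.39 ± 0.10 in WT and −0.53 ± 0.10 in KO (adjusted p = 0.00807 and 0.00155). *Atf4* itself was lower by −0.31 and −0.26, and *Creb3l2*, an ER-bound factor for secretory cargo genes, by −0.45 and −0.42. Of 21 targets of ATF4 and CHOP, 9 (42.9%) were lower in each genotype, while 3 were higher in WT and 5 in KO, with medians of −0.25 and −0.23. *Chac1*, a glutathione-degrading enzyme, stood at 5.33 ± 0.517 CPM in female WT and 13.4 ± 3.46 CPM in male WT (SD, n = 3), a log2 fold change of −1.33 (adjusted p = 8.8e-04). The stress-induced regulator *Nupr1* (−1.05 in WT and −1.10 in KO) and *Cebpb*, the partner of CHOP (−0.97 and −0.91), were also lower, whereas *Ddit3* did not pass.

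Of 17 genes of ER-associated degradation, 5 (29.4%) were lower and 2 (11.8%) higher in female WT, and 4 (23.5%) lower and 2 higher in female KO. The medians were −0.05 and −0.02. Over all genes 19.8% were lower and 18.9% higher in WT, and 19.7% and 18.9% in KO. On a list of 17 genes these counts departed from those shares by few genes. *Derl1*, a channel component, was lower by −0.30 and −0.31. Its relative *Derl3* was higher by 3.19 and 3.34, at a low level of 1.63 ± 0.429 CPM in female WT and 0.176 ± 0.0580 in male WT. *Ube2g2*, a ubiquitin-conjugating enzyme, was higher by 0.32 in WT and 0.30 in KO, and *Edem3*, a mannosidase, was lower by −0.22 and −0.42. Of 17 genes of glycoprotein folding and translocation, 5 (29.4%) were lower and 2 higher in WT, and 6 (35.3%) lower and 3 higher in KO, with medians of −0.05 and −0.04. *Uggt2* (−0.28 and −0.51) and the glucosidase *Mogs* (−0.29 and −0.28) were lower, and *Ssr2*, of the translocon-associated complex, was higher (0.41 and 0.34).

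The 14 genes of cytosolic and mitochondrial heat shock, outside the ER, were split too. In female WT 5 (35.7%) were lower and 1 higher, and in female KO 3 (21.4%, near the share over all genes) were lower and 5 (35.7%) higher, with medians of −0.04 and 0.03. *Hsph1* was lower by −0.82 in WT and −0.81 in KO, and *Hspb1* was higher by 0.51 and 0.50. *Hspa1a* (−0.64 and −0.85) and *Hspa1b* (−0.66 and −0.46) were lower in both, but they are near-identical copies and the split of reads between them is uncertain.

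**Figure D3:**
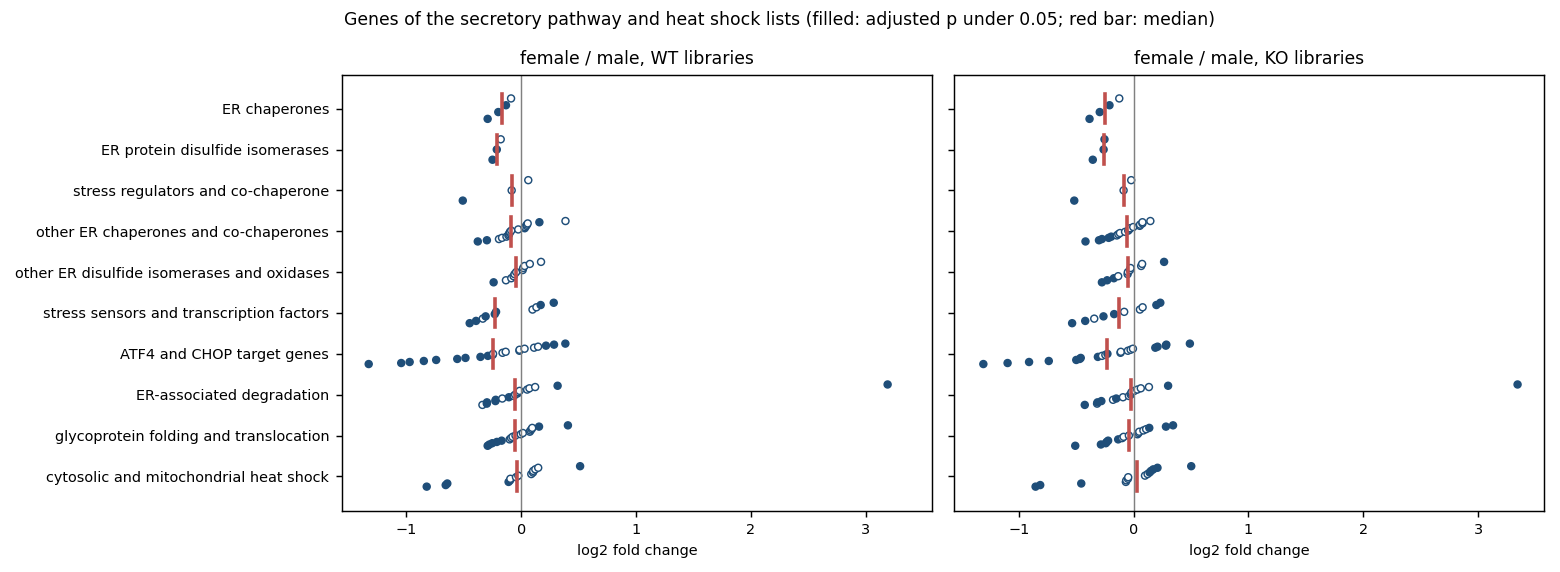
Log2 fold change of female against male (horizontal axis) for genes of each list, in WT libraries on the left and KO libraries on the right. Points are genes, filled where the adjusted p was under 0.05, and red bars are medians of the list. The 4 ER chaperones and 3 disulfide isomerases of the 10 genes lie below 0. Each list of further genes, with 10 to 21 genes, reaches both sides of 0, as the 3 regulators do in WT. WT medians are −0.17 and −0.21 for these chaperones and isomerases. They are −0.25 for targets of ATF4 and CHOP and −0.23 for stress sensors and transcription factors.

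Of the 37 genes that hold the ER stress response element, 27 were matched to the table by symbol or synonym and 20 were tested. Of these 20, 7 were lower and 3 higher in female WT, where 19.8% of all genes were lower and 18.9% higher. In female KO, 9 of the 20 were lower and 1 higher. Without the 10 genes described here, 4 of 15 were lower and 3 higher in WT, and 5 lower and 1 higher in KO, where 19.7% and 18.9% of all genes were. *Syvn1* was lower in WT (−0.30, adjusted p = 0.0065) and stood at −0.18 in KO (adjusted p = 0.0640), and *Dnajc3* was lower in KO (−0.22, adjusted p = 0.00353) and stood at −0.10 in WT (adjusted p = 0.0947), while *Derl3* and, in WT, *Creld2* were higher. These 4 pathway genes were named after their values were seen. Of the 5 other pathway genes with the element, *Ero1lb* stood at 0.07 in both genotypes (adjusted p = 0.623 and 0.665). The remaining lower genes were outside the pathway lists. They were *Pan2* (−0.63 in WT and −0.49 in KO), *Zfp57* (−0.63 and −0.69), *Adcy3* (−0.46 and −0.36) and, in KO, *Xlr3a* (−1.86). *Spats2l*, also outside them, was higher in WT (0.36). Among the 10 genes, *Hspa5*, *Hsp90b1* and *Canx* held the element and were lower in both genotypes, *Pdia6* held it and was lower in KO, and *Calr* held it and did not pass. Of the 5 genes with no exact match in the window, *Xbp1*, *Pdia3* and *Pdia4* were lower in both genotypes. *Ddit3* and *Dnajb9* did not pass.

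Co-variation was measured after the mean of each group had been subtracted from log2 CPM, so that differences between the groups did not enter it. Correlation with *Hspa5* was tested by an exact two-sided permutation of libraries within groups (n = 12, 1296 arrangements), for all 15386 other genes. After Benjamini-Hochberg adjustment 0 of the 9 other genes passed, and 0 of all genes did. The smallest permutation p possible was 7.7e-04, which over 15386 genes passes adjustment only if many genes reach it. The adjusted count of 0 therefore carries little weight. At an unadjusted p of 0.05 only *Pdia4* passed among the 9, as 4.75% of all genes did. *Pdia4* was closest, with a Pearson r of 0.78 (exact permutation p = 0.0139, adjusted p = 0.957) and a Spearman rho of 0.82 (exact permutation p = 0.00463). Without the 2 libraries in which *Hspa5* lay farthest from the median, male KO replicates 1 and 2, r was 0.69. The same removal took *Hsp90b1* from 0.38 to −0.20, *Canx* from 0.27 to −0.02, *Pdia6* from 0.30 to 0.09, *Ddit3* from 0.01 to 0.70 and *Pdia3* from 0.25 to near 0, so those values rested on these 2 libraries. The r of *Pdia4* was 0.37 within the 6 female and 0.97 within the 6 male libraries.

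The other 8 genes had an r with *Hspa5* between 0.01 (*Ddit3*) and 0.48 (*Xbp1*), and the median of the 9 was 0.30, against 0.01 over all genes. For 6 of the 9 genes r was negative within female and positive within male libraries, so that the pooled value joined opposite signs. These were *Calr* (−0.81 and 0.80), *Pdia6* (−0.78 and 0.86), *Xbp1* (−0.87 and 0.65), *Hsp90b1* (−0.31 and 0.57), *Canx* (−0.23 and 0.92) and *Pdia3* (−0.25 and 0.90). *Ddit3* had opposite signs the other way round (0.53 within female and −0.06 within male libraries). Over all genes, those most like *Hspa5* were *Atxn7l2* (r = 0.93), *Avil* (0.92), *Abhd3* (0.92), *Ythdf2* (0.89) and *Twf2* (0.89), each at an adjusted permutation p of 0.921. These 5 were picked from 15386 genes and none is on a list used here.

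Among all 45 pairs of the 10 genes, 39 had a positive r, and the median was 0.46. The highest was *Calr* with *Pdia6* (r = 0.88, with 0.97 in female and 0.88 in male libraries), followed by *Calr* with *Xbp1* (0.86). *Canx* with *Pdia3* had an r of 0.78 and *Hsp90b1* with *Pdia3* 0.75, the latter 0.98 in female and 0.86 in male libraries. *Ddit3* and *Dnajb9*, the 2 genes of lowest level, had an r of 0.75 (unadjusted exact permutation p = 0.0586). The r of *Calr* with *Xbp1* was 0.53 in female and 0.95 in male libraries. Each pair was also read without the 2 libraries in which its first gene lay farthest from the median. The r was then 0.88 for *Calr* with *Pdia6* and 0.95 for *Hsp90b1* with *Pdia3*. It fell to 0.58 for *Calr* with *Xbp1*, 0.60 for *Canx* with *Pdia3* and 0.56 for *Ddit3* with *Dnajb9*. The lowest was *Hsp90b1* with *Ddit3* (−0.71), which was −0.05 with 2 libraries left out. After adjustment 0 pairs passed, under the same limit on the smallest p, and at an unadjusted exact permutation p of 0.05, 7 pairs did. These are 15.6% of the 45 pairs, and 86.7% had a positive r. For the 10 genes paired with all genes tested outside the 10, the shares were 8.62% and 50.3%, a description with no test. All pairs share the same libraries and their depth.

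**Figure D4:**
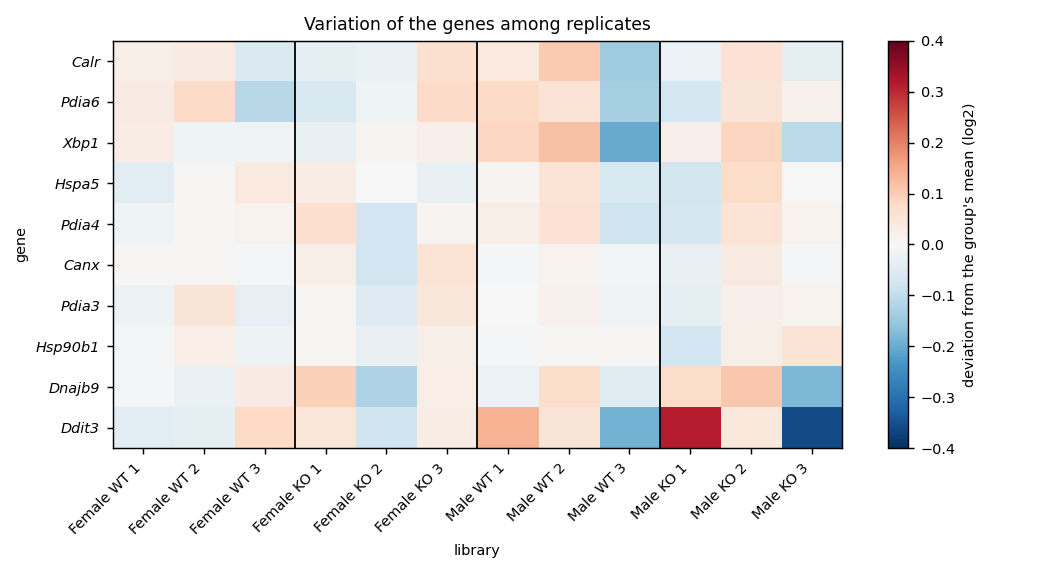
Deviation of log2 CPM from the mean of the group (colour) for the 10 genes in each of the 12 libraries, with lines between groups. *Calr*, *Pdia6* and *Xbp1* were below their mean in male WT replicate 3, and *Ddit3* varied most, from 31.0 CPM in male KO replicate 1 to 19.5 CPM in male KO replicate 3.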

How the data were processed

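Total RNA of MEFs was sequenced from TruSeq libraries. Per the study's methods and the submitters' processing notes, the authors mapped reads to mm9 with Bowtie 2 and quantified genes with RSEM 1.2.29. The values the authors deposited are expected counts per gene, not scaled. RSEM divides reads that match several genes. After rounding, quasi-likelihood tests were run in R 4.3.3 with edgeR 4.0.16, TMM scaling, filterByExpr, 1 mean per group of 3 libraries, 8 residual degrees of freedom and Benjamini-Hochberg adjustment over 15387 genes at 0.05. CPM was TMM-scaled. Approximate TPM used merged exon lengths of NCBIM37, in which all 37310 identifiers were found. Log2 CPM had a prior count of 2. Scripts were tested on simulated data. DESeq2 1.42.0, other scalings and filters, a replicate block and leaving out libraries were alternatives. Named pathway genes were, per list and comparison, up to 3 called genes with the largest absolute log2 fold change, and the 5 genes most correlated with *Hspa5*. The genes and lists were chosen with earlier results of these data known. Total counts of 42986516 to 65454660 per library set the precision. Hi-C files were not used here.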

Additional observations from a re-analysis of the deposited data

How the results depend on the processing

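The KO counts were 0 of 10 genes under each alternative, and so was the count co-varying with *Hspa5*. That count of co-varying genes shows little about stability, given the smallest p the permutations can give. The correlations themselves reversed in 10 of 135 values. The count lower in female MEFs lay between 5 and 8 in WT and between 7 and 9 in KO under the alternatives, except at the thresholds of the study, where both were 0, since every log2 fold change was under 1 in size. The replicate block left the counts at 6 and 7. Same-numbered WT and KO libraries correlated at −0.16 to −0.12 in female and 0.10 to 0.33 in male MEFs, and 5 of 12 libraries correlated best with their own number, so the numbers were not taken as pairs. *Pdia6* passed in female against male WT with no filter (−0.20, adjusted p = 0.0493).

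Reversals occurred among log2 fold changes near 0 and weak correlations. In male MEFs, KO against WT, *Hsp90b1* was −5.1e-04 with DESeq2 and −2.7e-04 with its size factors. With library size alone, *Hspa5* was 0.0015 and *Pdia3* 0.0053 in male MEFs, *Xbp1* was −0.0016 in female MEFs, and the correlation of *Ddit3* with *Hspa5* was −0.027. With both male replicate 3 libraries left out, an alternative chosen after seeing the data, the male KO values were −0.027 for *Hsp90b1*, −0.032 for *Calr*, −0.034 for *Pdia4*, −0.065 for *Pdia6*, −0.025 for *Xbp1*, 0.018 for *Ddit3* and 0.040 for *Dnajb9*. Leaving out each library in turn, male KO values ranged from −0.045 to 0.076 for *Calr*, −0.0084 to 0.023 for *Canx*, −0.22 to 0.11 for *Ddit3*, −0.070 to 0.067 for *Dnajb9*, −0.026 to 0.038 for *Hsp90b1*, −0.046 to 0.028 for *Hspa5*, −0.015 to 0.012 for *Pdia3*, −0.025 to 0.047 for *Pdia4*, −0.053 to 0.048 for *Pdia6* and −0.073 to 0.079 for *Xbp1*. In female KO they ranged from −0.046 to 0.0070 for *Calr* and −0.0083 to 0.058 for *Ddit3*, and in female against male KO from −0.18 to 0.15 for *Ddit3*. Correlations with *Hspa5* ranged from −0.26 to 0.74 for *Ddit3*, −0.33 to 0.50 for *Hsp90b1* and −0.046 to 0.59 for *Pdia6*. The cause of these reversals was not tested. With 3 libraries a group, the smallest difference that passed among the 10 genes was −0.13 (*Canx*, female against male WT).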
